A study of Caenorhabditis elegans with 18 samples.

Results

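The Argonaute genes described here are hrde-1, csr-1, ergo-1, prg-1, alg-1, alg-2, rde-1, nrde-3, wago-1 and ppw-1 of the nematode Caenorhabditis elegans. They were chosen by name, and each was read from the probe set whose annotation names that gene alone, taking the one with the highest mean over the 18 arrays where there were several. This gave values for 9 of the 10 genes, out of 17118 genes with a probe set of their own. The exception is ppw-1, whose probe set also names sago-2 and could not be assigned to either gene. RNA of whole worms was measured on Affymetrix arrays in 6 groups of 3 arrays: N2, the standard wild type, and the mutant lin-35(n745), each as embryos, L1 larvae and L4 larvae, with the larval samples labelled as synchronized hermaphrodites. All worms were grown at 20 °C on plates with the bacterial strain OP50, and per the design text the triplicates came from animals raised and collected separately. lin-35 encodes the worm's retinoblastoma-type pocket protein, a transcriptional repressor, and n745 is a null allele carried in every cell of the animal, so the design holds no tissue-specific loss.

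Argonaute proteins bind small RNAs and use them as guides to find target transcripts. ALG-1 and ALG-2 load microRNAs, RDE-1 loads short RNAs cut from double-stranded RNA taken up or injected, ERGO-1 loads endogenous short interfering RNAs, and the Piwi-type protein PRG-1 loads piRNAs in the germline. Targeting by RDE-1, ERGO-1 and PRG-1 can trigger synthesis of secondary RNAs by RNA-dependent RNA polymerases, which are loaded by worm-specific Argonautes: WAGO-1 in germline granules, HRDE-1 in germline nuclei, where it carries silencing between generations, and NRDE-3 in somatic nuclei. CSR-1 is an Argonaute that associates with expressed germline genes. Loss of lin-35 is known, as background, for germline gene expression in somatic cells and for enhanced RNA interference.

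In each stage the lin-35 transcript separated the strains in the direction of the labels, with lin-35(n745) arrays at log2 values of 7.68 to 8.22 against N2 arrays at 9.07 to 9.36 in embryos, 6.24 to 6.95 against 7.82 to 7.86 at L1 and 6.32 to 6.49 against 7.60 to 7.71 at L4. The mean of 7 early embryo marker genes was 6.37 to 6.75 in the embryo arrays and at most 5.30 in the others, and the mean of 10 sperm genes was 9.77 to 9.89 in the L4 arrays and at most 5.93 in the others. Within a group, arrays correlated at 0.9863 to 0.9973. Replicate 1 of both strains stood apart among the embryo arrays in the spiked hybridization control BioDn, which read 9.47 and 9.77 there and 11.29 to 11.47 on the other 4. The control BioB set them apart in the other direction, at 6.16 and 6.32 against 5.08 to 5.40. The embryo strain differences of the described genes are therefore also given without replicate 1 of both strains. In RNA of whole worms, more cells of a type and more RNA per cell cannot be told apart. All levels below are the deposited values, taken as log2, and differences are lin-35(n745) minus N2 in log2 units ± SE with n = 3 arrays per group. Changed means an adjusted p under 0.05 in limma, adjusted over 22548 probe sets.

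Across the described genes the strain difference was largest for hrde-1. In embryos 2 of 9 genes changed, hrde-1 higher and rde-1 lower, where 9.70% of all probe sets changed, 5.92% higher and 3.78% lower. At L1 6 of 9 changed, 4 higher (hrde-1, csr-1, alg-1 and rde-1) and 2 lower (wago-1 and prg-1), against 15.2% of all probe sets, 8.24% higher and 6.94% lower. Over all probe sets that is 1859 higher and 1564 lower, which became 1569 and 2302 with arrays centred on their medians. At L4 3 of 9 changed, hrde-1 and alg-2 higher and prg-1 lower, against 15.2% of all probe sets, 7.77% higher and 7.48% lower. Leaving out 1 array gave 1 to 2, 4 to 6 and 1 to 4 changed genes at the 3 stages, and without replicate 1 of both embryo strains 1 changed in embryos, through the arrays named with each gene below. The median difference of the 9 genes was -0.16, 0.22 and -0.08 at the 3 stages, beside -0.03, -0.04 and -0.03 for all probe sets. The arrays of the strains did not overlap for 4, 6 and 7 of the 9 genes, where 25.8%, 26.5% and 35.9% of all probe sets showed no overlap. The nuclear Argonaute nrde-3 and the primary Argonaute ergo-1 changed at no stage.

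**Figure D1:**
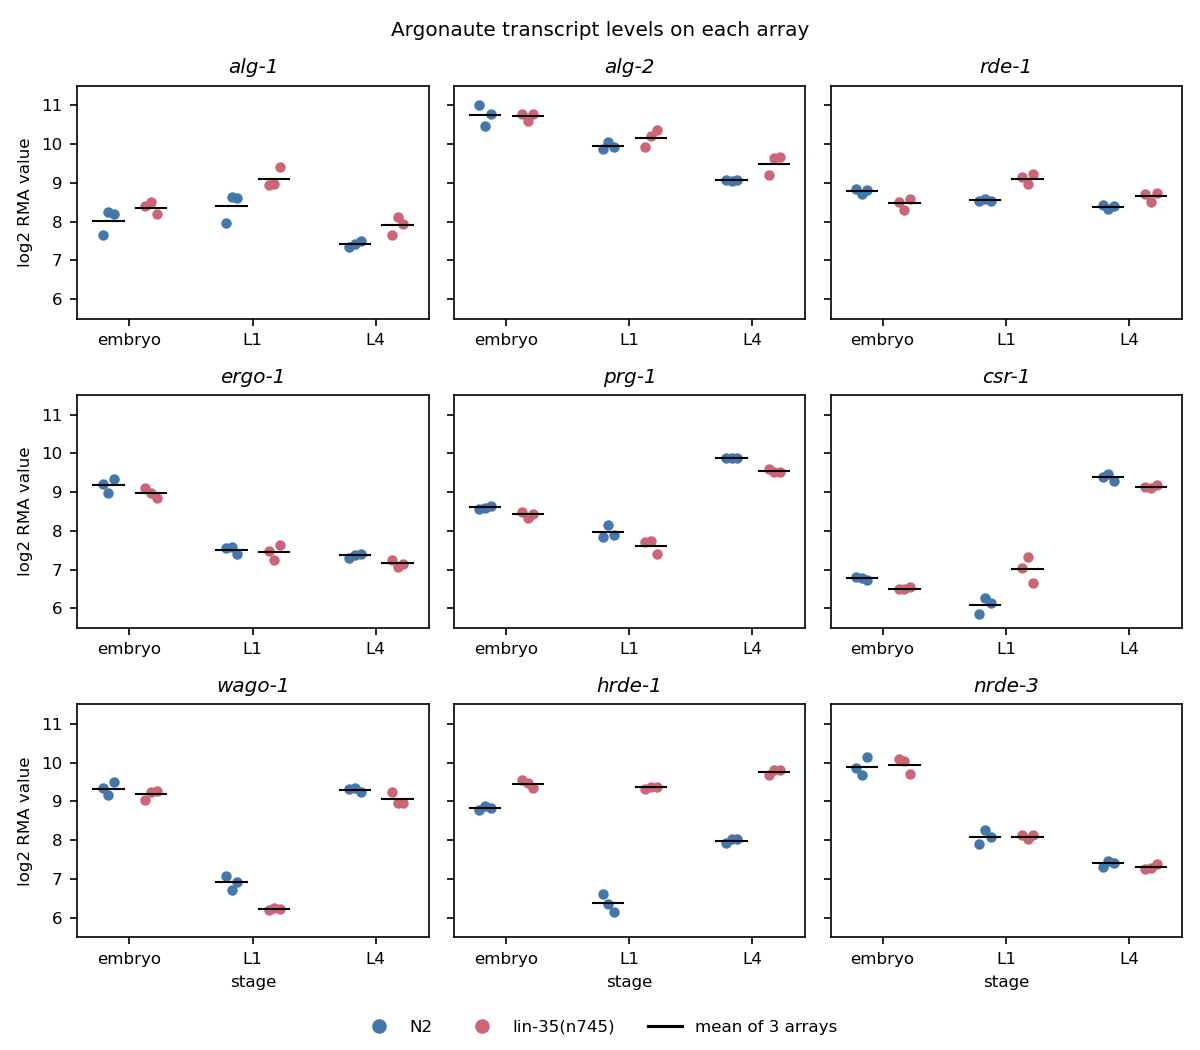
Log2 RMA value of each array for the 9 described Argonaute genes, with stage on the horizontal axis, N2 in blue, lin-35(n745) in red and the mean of 3 arrays as a black bar. The hrde-1 arrays of lin-35(n745) lie between 9.32 and 9.81 at every stage, while those of N2 fall to between 6.15 and 6.60 at L1, and the nrde-3 arrays of the strains overlap at every stage.

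The germline nuclear Argonaute hrde-1 was higher in lin-35(n745) at every stage. In embryos the N2 arrays read 8.79, 8.87 and 8.82 and the lin-35(n745) arrays 9.54, 9.48 and 9.35. At L1 the N2 arrays read 6.60, 6.36 and 6.15 and the lin-35(n745) arrays 9.32, 9.37 and 9.38. At L4 the N2 arrays read 7.93, 8.02 and 8.04 and the lin-35(n745) arrays 9.69, 9.81 and 9.80. The strains did not overlap at any stage, and every lin-35(n745) array, whatever its stage, was above every N2 array. The differences were 0.63 ± 0.10 in embryos (adjusted p = 0.000291), 2.99 ± 0.10 at L1 (adjusted p = 1.63e-14) and 1.77 ± 0.10 at L4 (adjusted p = 1.02e-10), or 1.55-fold, 7.92-fold and 3.41-fold. Among 17118 genes ordered from the highest difference down, hrde-1 was number 596 in embryos, number 52 at L1 and number 123 at L4. Without replicate 1 of both strains the embryo difference was 0.57 (adjusted p = 0.0123). Without those arrays the embryo differences of the genes that did not pass were -0.23 for csr-1, -0.24 for ergo-1, -0.24 for prg-1, 0.07 for alg-2, -0.03 for nrde-3 and -0.08 for wago-1, and they did not pass there either (adjusted p from 0.366 to 0.946).

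The course of hrde-1 through development also differed between the strains. In N2 the transcript fell by 2.46 ± 0.10 from embryo to L1 (adjusted p = 1.8e-14) and rose by 1.62 ± 0.10 from L1 to L4 (adjusted p = 5.56e-11). In lin-35(n745) the difference from embryo to L1 was -0.10 ± 0.10 (adjusted p = 0.392, 95% interval -0.31 to 0.11), and the rise from L1 to L4 was 0.41 ± 0.10 (adjusted p = 0.00247). Ordered by level, the groups ran lin-35(n745) L4, lin-35(n745) embryos, lin-35(n745) L1, N2 embryos, N2 L4 and N2 L1. Of these neighbours, the difference between lin-35(n745) embryos and L1 larvae did not pass, and those of the other 4 neighbouring pairs did. The lin-35(n745) L1 larvae stood 0.53 ± 0.10 above the N2 embryos (adjusted p = 0.000119). Tested directly, the strain difference was larger at L1 than in embryos by 2.36 ± 0.14 (adjusted p = 9.2e-10), larger at L4 than in embryos by 1.14 ± 0.14 (adjusted p = 2.29e-05), and changed by -1.21 ± 0.14 from L1 to L4 (adjusted p = 1.51e-05).

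A further pair of probe sets reads hrde-1. The one of intermediate level gave strain differences of 0.38 ± 0.14 in embryos (adjusted p = 0.0988), 3.04 ± 0.14 at L1 (adjusted p = 1.99e-12) and 1.55 ± 0.14 at L4 (adjusted p = 7.71e-08). It gave no rise from L1 to L4 in lin-35(n745), at 0.04 ± 0.14 (adjusted p = 0.854), where the brightest probe set rose by 0.41. The dimmest, with a group mean of at most 4.75, gave 0.30 ± 0.15 (adjusted p = 0.255), 0.47 ± 0.15 (adjusted p = 0.0402) and 0.70 ± 0.15 (adjusted p = 0.00263). RMA gives no detection call, so how far the values of that probe set lie above background is unknown. Over the 18 arrays the genes whose course was most like that of hrde-1 were the germline innexin inx-22 (Pearson r = 0.974), Y54G9A.5 (r = 0.971) and C29A12.1 (r = 0.969), a description over arrays that share strains and stages. Of the neighbours of hrde-1 on chromosome III in the RefSeq gene table, C16C10.4 differed by -0.09 in embryos, -0.29 at L1 and -0.46 at L4 (adjusted p = 0.0112 at L4), and C16C10.13 has no probe set of its own.

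Germline marker genes differed between the strains at the same stages. Over all probe sets, 5.92%, 8.24% and 7.77% were higher and 3.78%, 6.94% and 7.48% lower in embryos, at L1 and at L4. Of 18 measured markers, 4 were higher and 0 lower in embryos in limma (6 and 0 at an unadjusted p under 0.05), 6 higher and 3 lower at L1, and 6 higher and 3 lower at L4. At L1 the P granule genes pgl-3 (4.81 ± 0.10) and pgl-1 (3.25 ± 0.11), the meiotic axis gene him-3 (4.48 ± 0.12) and the synaptonemal complex gene syp-1 (3.46 ± 0.14) led them, while the P granule gene deps-1 (-0.40), the translational repressor gld-1 (-0.52) and the oocyte maturation gene oma-1 (-0.47) were lower. The mean log2 level of the 18 markers ran from 6.42 to 6.72 in N2 L1 arrays and from 7.29 to 7.56 in lin-35(n745) L1 arrays, from 8.54 to 8.62 and from 8.84 to 8.92 in embryos, and from 8.69 to 8.73 and from 8.94 to 8.97 at L4. The part of germline RNA in the strain differences of the Argonaute genes was not tested, and the median difference of the markers was -0.11 at L1.

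csr-1, the Argonaute of expressed germline genes, was higher in lin-35(n745) at L1. The N2 arrays read 5.87, 6.27 and 6.15 and the lin-35(n745) arrays 7.05, 7.32 and 6.66, without overlap, a difference of 0.91 ± 0.13 or 1.88-fold (adjusted p = 3.47e-05). In embryos the N2 arrays read 6.82, 6.78 and 6.73 and the lin-35(n745) arrays 6.49, 6.50 and 6.56, a difference of -0.26 ± 0.13 that did not pass (adjusted p = 0.242, 95% interval -0.54 to 0.01). At L4 the N2 arrays read 9.39, 9.47 and 9.28 and the lin-35(n745) arrays 9.13, 9.12 and 9.19, a difference of -0.24 ± 0.13 that did not pass either (adjusted p = 0.276, interval -0.51 to 0.03). The strains were thus separated in opposite directions, with lin-35(n745) above N2 at L1 and below it in the other stages, but only the L1 separation passed the test. The strain difference at L1 exceeded that in embryos by 1.17 ± 0.18 (adjusted p = 0.000237), and it changed by -1.15 ± 0.18 from L1 to L4 (adjusted p = 0.000436).

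The largest differences of csr-1 lay between L1 and L4. From L1 to L4 it rose by 3.28 ± 0.13 in N2 (adjusted p = 4.68e-14) and by 2.13 ± 0.13 in lin-35(n745) (adjusted p = 4.31e-11). From embryo to L1 it fell by 0.68 ± 0.13 in N2 (adjusted p = 9.94e-05) and rose by 0.50 ± 0.13 in lin-35(n745) (adjusted p = 0.00211). In order, the 2 L4 groups were highest, without overlap but with a difference that did not pass. After a step of 2.13 came lin-35(n745) L1, N2 embryos and lin-35(n745) embryos, whose differences from neighbour to neighbour did not pass. N2 L1 was the lowest. Its most alike genes over the 18 arrays were the spermatogenesis gene spe-46 (r = 0.979), gipc-2 (r = 0.975) and T08B6.4 (r = 0.973). At L1, where csr-1 was higher, 0 of 10 sperm markers were higher in limma (also 0 at an unadjusted p under 0.05) and 3 were lower (7 at an unadjusted p under 0.05), msp-78 at -1.08 ± 0.24, msp-19 at -1.05 ± 0.19 and msp-36 at -0.88 ± 0.20. Among all probe sets 8.24% were higher and 6.94% lower at L1. The mean of the sperm markers was 5.93, 5.37 and 5.23 in N2 L1 replicates 1, 2 and 3 and 5.02 to 5.06 in the lin-35(n745) L1 arrays, and its part in the L1 differences was not tested. In the RefSeq table the csr-1 locus on chromosome IV overlaps frpr-10, whose own probe set differed by -0.07 at L1 (adjusted p = 0.798).

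wago-1, which binds secondary RNAs in the germline, was lower in lin-35(n745) at L1. The N2 arrays read 7.07, 6.72 and 6.93 and the lin-35(n745) arrays 6.21, 6.24 and 6.22, a difference of -0.68 ± 0.11 (adjusted p = 0.00021) with no overlap. The transcript thus stood lower in the mutant at the stage at which hrde-1 and csr-1 stood higher. In embryos the N2 arrays read 9.35, 9.16 and 9.49 and the lin-35(n745) arrays 9.03, 9.24 and 9.26, and at L4 they read 9.31, 9.34 and 9.24 and 9.25, 8.97 and 8.95. The strains overlapped at both of these stages, and the differences of -0.16 ± 0.11 (adjusted p = 0.472) and -0.23 ± 0.11 (adjusted p = 0.201) did not pass. Both strains had their lowest level at L1. From embryo to L1 wago-1 changed by -2.43 ± 0.11 in N2 and by -2.95 ± 0.11 in lin-35(n745), and from L1 to L4 it rose by 2.39 ± 0.11 and 2.83 ± 0.11 (all with adjusted p of at most 7.14e-13). In order of level no neighbouring pair among the 4 embryo and L4 groups passed, then came N2 L1 after a step of 2.15 and lin-35(n745) L1 as the lowest. The ends of the first 4 did differ, with lin-35(n745) L4 against N2 embryos at -0.27 ± 0.11 (adjusted p = 0.0353), although their arrays overlapped. Genes most like wago-1 over the 18 arrays were T22D1.5 (r = 0.993), K07A1.17 (r = 0.992) and the P granule gene deps-1 (r = 0.992). The strain difference at L1 was below that in embryos by -0.52 ± 0.16 (adjusted p = 0.0447), a call that ended without N2 L1 replicate 1 or 3, lin-35(n745) L1 replicate 1 or 3, any of the 3 N2 L4 arrays, lin-35(n745) L4 replicate 2 or 3, N2 embryo replicate 1 or 2, or lin-35(n745) embryo replicate 2 or 3, with values of -0.44 to -0.53 and adjusted p from 0.0504 to 0.12, and also without replicate 1 of both embryo strains (-0.60, adjusted p = 0.0538).

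prg-1, the piRNA-binding Piwi gene, was slightly lower in lin-35(n745) larvae. At L1 the N2 arrays read 7.85, 8.14 and 7.89 and the lin-35(n745) arrays 7.72, 7.74 and 7.40, a difference of -0.34 ± 0.10 (adjusted p = 0.0291). At L4 the N2 arrays read 9.87, 9.88 and 9.89 and the lin-35(n745) arrays 9.61, 9.52 and 9.52, a difference of -0.33 ± 0.10 (adjusted p = 0.0319). The strains did not overlap at either stage, and the sizes, 1.26-fold at each, were small. The L1 call ended without N2 L1 replicate 2 (-0.25, adjusted p = 0.161) or lin-35(n745) L1 replicate 3 (-0.23, adjusted p = 0.172), and the L4 call without any of the 3 N2 L4 arrays or lin-35(n745) L4 replicate 2 or 3 (-0.32 to -0.34, adjusted p from 0.0767 to 0.1). In embryos the difference was -0.18 ± 0.10 (adjusted p = 0.33), with N2 at 8.57 to 8.65 and lin-35(n745) at 8.34 to 8.50. From L1 to L4, prg-1 rose by 1.92 ± 0.10 in N2 and by 1.93 ± 0.10 in lin-35(n745), and the strain difference changed over that interval by 0.01 ± 0.15 (adjusted p = 0.989, 95% interval -0.30 to 0.31). In order of level the L4 groups stood highest, the embryo groups in the middle and the L1 groups lowest. The arrays of the embryo groups did not overlap, but their difference did not pass. The most alike genes were C56A3.8 (r = 0.986), F55G1.6 (r = 0.985) and the spermatogenesis gene spe-5 (r = 0.984). prg-1 has a close relative, prg-2, and its locus overlaps D2030.12 in the RefSeq table, so the source of its signal is less certain. The probe set of prg-2 differed by -0.07, -0.16 and -0.02 at the 3 stages and did not pass at any.

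rde-1, the Argonaute of the response to foreign double-stranded RNA, changed in opposite directions in embryos and at L1. At L1 the N2 arrays read 8.54, 8.58 and 8.54 and the lin-35(n745) arrays 9.16, 8.96 and 9.22, a difference of 0.57 ± 0.10 or 1.48-fold (adjusted p = 0.000352). In embryos the N2 arrays read 8.84, 8.72 and 8.83 and the lin-35(n745) arrays 8.52, 8.31 and 8.59, a difference of -0.32 ± 0.10 (adjusted p = 0.0445). The strains did not overlap at either stage. The embryo call sat at the threshold: it ended without any of the 3 N2 arrays of any stage, without lin-35(n745) L4 replicate 1 or 3, and without lin-35(n745) embryo replicate 1 or 2 (-0.24 to -0.36, adjusted p from 0.0525 to 0.217), and without replicate 1 of both embryo strains the difference was -0.32 with adjusted p = 0.157. The L4 difference of 0.27 ± 0.10 did not pass (adjusted p = 0.0738), with N2 arrays at 8.42, 8.34 and 8.40 and lin-35(n745) arrays at 8.71, 8.52 and 8.74, but it passed without lin-35(n745) L4 replicate 2 (0.34, adjusted p = 0.0475). Tested directly, the strain difference was larger than in embryos by 0.89 ± 0.14 at L1 (adjusted p = 0.000254) and by 0.59 ± 0.14 at L4 (adjusted p = 0.00977). A dimmer rde-1 probe set gave -0.19 ± 0.11 (adjusted p = 0.329), 0.40 ± 0.11 (adjusted p = 0.0135) and 0.30 ± 0.11 (adjusted p = 0.0712), and a difference between L1 and embryos of 0.59 ± 0.15 (adjusted p = 0.0162). Its difference between L4 and embryos, 0.49 ± 0.15, did not pass (adjusted p = 0.0555). In order of level lin-35(n745) L1 stood above N2 embryos by 0.32 ± 0.10 (adjusted p = 0.0074), and the differences of the other 4 neighbouring pairs did not pass. Groups further apart in that order could differ, with N2 L4 against N2 embryos at -0.41 ± 0.10 (adjusted p = 0.000909). The group means of rde-1 ran from 8.39 to 9.11. The most alike genes were fkb-1 (r = 0.876), K07A1.3 (r = 0.863) and BAH-4 (r = 0.853).

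**Figure D2:**
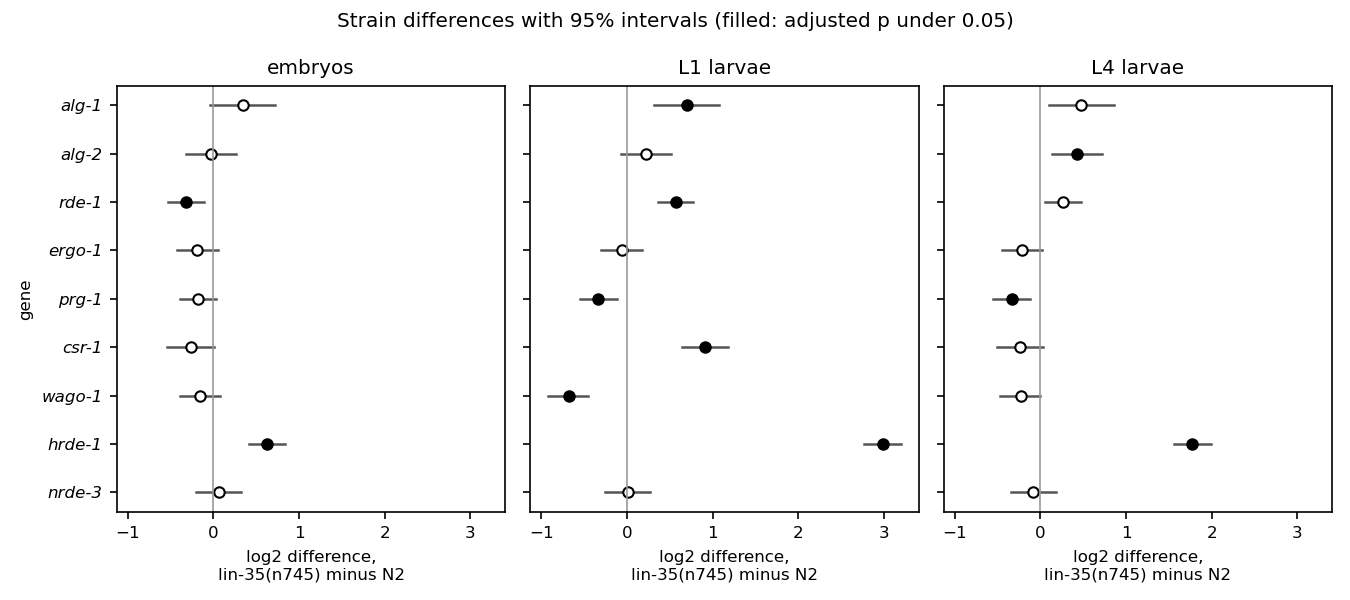
Difference in log2 RMA value between lin-35(n745) and N2 (horizontal axis) for each described gene (vertical axis) in embryos, L1 and L4, with 95% intervals of the fit as lines and filled points where the adjusted p was under 0.05. hrde-1 lies at 0.63, 2.99 and 1.77, while the other 8 genes lie between -0.68 and 0.91.

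The microRNA Argonaute gene alg-1 was higher in lin-35(n745) at L1, and alg-2 at L4. For alg-1 at L1 the N2 arrays read 7.96, 8.63 and 8.61 and the lin-35(n745) arrays 8.94, 8.96 and 9.40, a difference of 0.70 ± 0.18 (adjusted p = 0.0113) with no overlap. At L4 the N2 arrays read 7.36, 7.43 and 7.49 and the lin-35(n745) arrays 7.66, 8.12 and 7.95, a difference of 0.48 ± 0.18 that did not pass (adjusted p = 0.0839). In embryos the difference was 0.34 ± 0.18 (adjusted p = 0.299), with overlapping arrays of 7.65 to 8.25 and 8.19 to 8.51, and it was 0.13 without replicate 1 of both strains. The L1 call ended without N2 L1 replicate 1, the lowest of its group (0.48, adjusted p = 0.0833), or without lin-35(n745) L1 replicate 3 (0.55, adjusted p = 0.0654), and the L4 difference passed without N2 L1 replicate 1 (0.48, adjusted p = 0.0426). In order of level, lin-35(n745) L1 was highest and N2 L4 lowest, and of the 5 neighbouring pairs that of the L1 groups alone passed. The arrays of the L4 groups did not overlap either, but their difference did not pass. The genes most like alg-1 were egl-8 (r = 0.905), nlp-10 (r = 0.893) and dlk-1 (r = 0.889).

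The 3 probe sets of alg-1 disagreed on its course, so its values are uncertain. From embryo to L1 in N2 the brightest differed by 0.37 ± 0.18 (adjusted p = 0.0698), whereas the next fell by 1.00 ± 0.15 (adjusted p = 5.04e-06) and the dimmest fell by 0.87 ± 0.13 (adjusted p = 3.81e-06). In lin-35(n745) over the same interval the brightest rose by 0.74 ± 0.18 (adjusted p = 0.0013), and the others changed by -0.40 ± 0.15 (adjusted p = 0.023) and -0.69 ± 0.13 (adjusted p = 6.69e-05). From L1 to L4 in N2 all 3 fell, with changes of -0.97 ± 0.18, -0.66 ± 0.15 and -0.50 ± 0.13 (adjusted p = 0.000161, 0.00102 and 0.00269). In lin-35(n745) the brightest changed over that interval by -1.19 ± 0.18 (adjusted p = 1.66e-05). The others did not pass there (-0.27 ± 0.15, adjusted p = 0.155, and -0.16 ± 0.13, adjusted p = 0.36). The strain difference at L1 did not pass in the others (0.38 ± 0.15, adjusted p = 0.099, and 0.09 ± 0.13, adjusted p = 0.703), and at L4 it did (0.76 ± 0.15, adjusted p = 0.00106, and 0.43 ± 0.13, adjusted p = 0.0228). At L4 all 3 thus stood higher in lin-35(n745), but only the dimmer ones passed. The N2 change of the brightest passed without N2 L1 replicate 1 (0.59, adjusted p = 0.00538) or N2 embryo replicate 2 (0.48, adjusted p = 0.0396).

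For alg-2 the L4 arrays read 9.07, 9.06 and 9.08 in N2 and 9.20, 9.64 and 9.66 in lin-35(n745), a difference of 0.43 ± 0.14 (adjusted p = 0.0429). The strains did not overlap there, and the lin-35(n745) arrays spread more widely than those of N2. That call ended without any of the 3 N2 L4 arrays, lin-35(n745) L4 replicate 2 or 3, N2 L1 replicate 3, N2 embryo replicate 3 or lin-35(n745) embryo replicate 1 or 3 (0.35 to 0.43, adjusted p from 0.0506 to 0.188). It also ended with arrays centred on their medians (0.40, adjusted p = 0.0684), with a further quantile normalization (0.40, adjusted p = 0.0749) and with the mean of the alg-2 probe sets (0.28, adjusted p = 0.132). A dimmer alg-2 probe set gave 0.13 ± 0.13 at L4 (adjusted p = 0.6). The differences in embryos (-0.03 ± 0.14) and at L1 (0.22 ± 0.14) did not pass, with 95% intervals of -0.32 to 0.26 and -0.07 to 0.51. On the brightest probe set the level fell over both intervals in both strains: alg-2 changed from embryo to L1 by -0.80 ± 0.14 in N2 and by -0.55 ± 0.14 in lin-35(n745), and from L1 to L4 by -0.88 ± 0.14 and -0.67 ± 0.14, with adjusted p of at most 0.00163. The dimmer one fell too, except that its change from L1 to L4 in lin-35(n745) did not pass (-0.26 ± 0.13, adjusted p = 0.116). By level the embryo groups were highest, followed by the L1 groups, and the strain difference passed in neither pair. The most alike genes over the 18 arrays were tol-1 (r = 0.975), chd-7 (r = 0.974) and F09C8.2 (r = 0.973).

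**Figure D3:**
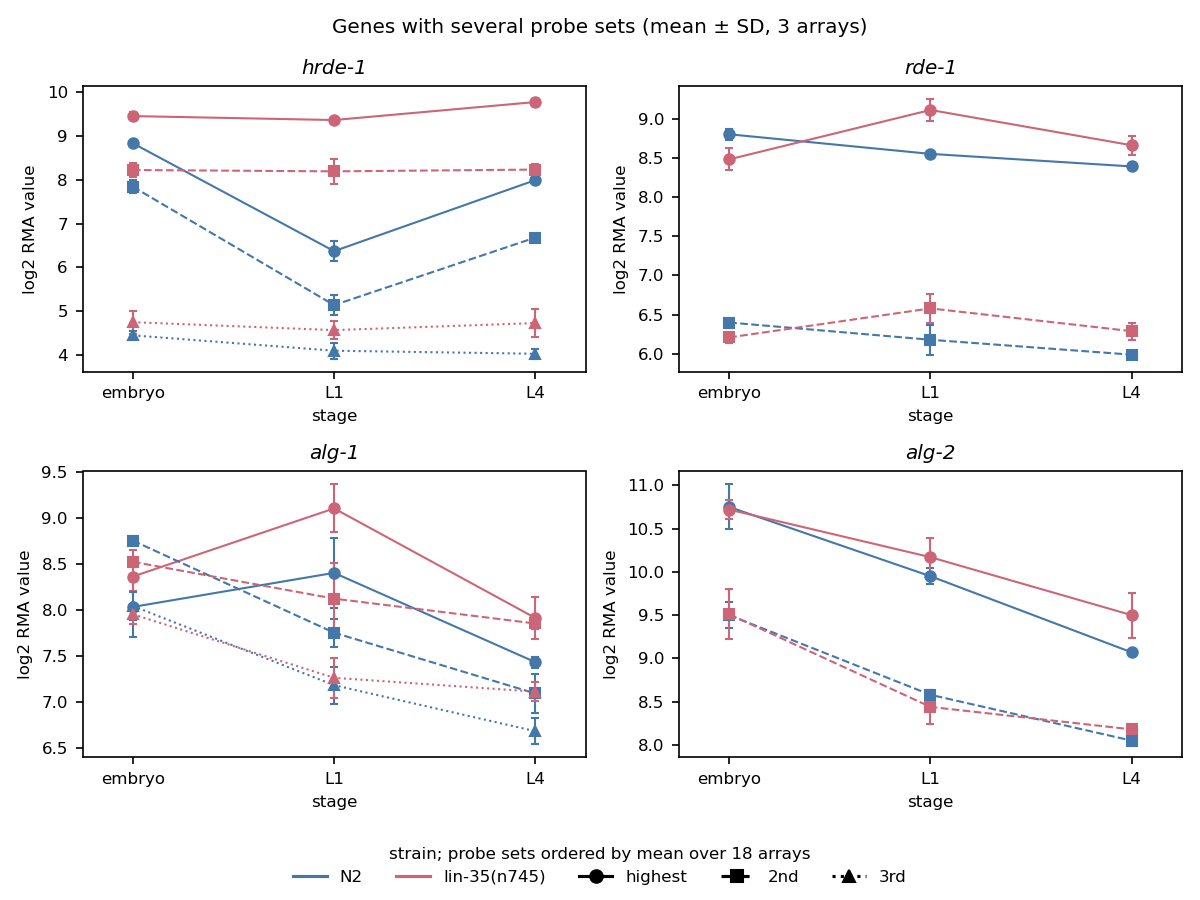
Log2 RMA value (mean ± SD of 3 arrays) against stage for every probe set of the 4 genes with several, N2 in blue and lin-35(n745) in red, with line and marker style giving the order of the probe sets by mean. The 2 brighter hrde-1 probe sets share the N2 dip at L1, and for alg-1 only the brightest probe set is higher at L1 than in embryos.

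ergo-1, the Argonaute of endogenous short interfering RNAs, and nrde-3, that of somatic nuclei, changed with stage, while their strain differences did not pass. For ergo-1 the N2 arrays read 9.22, 8.98 and 9.34 as embryos, 7.57, 7.59 and 7.40 as L1 larvae, and 7.31, 7.39 and 7.41 as L4 larvae. The lin-35(n745) arrays read 9.12, 8.99 and 8.85, then 7.49, 7.25 and 7.63, then 7.25, 7.07 and 7.15. The strains overlapped in embryos and at L1 and were separated at L4 by a difference that did not pass. The strain differences were -0.19 ± 0.11 (adjusted p = 0.353), -0.06 ± 0.11 (adjusted p = 0.775) and -0.21 ± 0.11 (adjusted p = 0.258), with 95% intervals of -0.43 to 0.05, -0.30 to 0.18 and -0.45 to 0.02. From embryo to L1 ergo-1 changed by -1.66 ± 0.11 in N2 (adjusted p = 6.34e-11) and by -1.53 ± 0.11 in lin-35(n745) (adjusted p = 2.87e-10). In order of level both embryo groups stood above the rest, and of the 5 neighbouring pairs the step from lin-35(n745) embryos to N2 L1, of 1.47 ± 0.11, was the one that passed. The fall from L1 to L4 in lin-35(n745), -0.30 ± 0.11 (adjusted p = 0.04), was lost without lin-35(n745) L1 replicate 1 or 3 or L4 replicate 2 or 3 (-0.21 to -0.30, adjusted p from 0.0851 to 0.19). The genes most like ergo-1 were F16B12.4 (r = 0.992), tsp-17 (r = 0.992) and Y48G1C.6 (r = 0.991). The ergo-1 locus on chromosome V overlaps pei-2 in the RefSeq table, whose probe set did not pass at any stage, and of its neighbours R09A1.3 was higher at L1 (1.07, adjusted p = 2.14e-06) and at L4 (0.51, adjusted p = 0.00594).

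For nrde-3 the N2 arrays read 9.85, 9.68 and 10.14 as embryos, 7.90, 8.25 and 8.09 as L1 larvae, and 7.32, 7.46 and 7.42 as L4 larvae. The lin-35(n745) arrays read 10.10, 10.05 and 9.70, then 8.13, 8.03 and 8.12, then 7.26, 7.29 and 7.39, overlapping N2 at every stage. The differences were 0.06 ± 0.12 (adjusted p = 0.86), 0.01 ± 0.12 (adjusted p = 0.961) and -0.08 ± 0.12 (adjusted p = 0.772), with 95% intervals of -0.20 to 0.32, -0.25 to 0.27 and -0.34 to 0.18. At L1, where hrde-1 differed by 2.99, the interval for its somatic counterpart therefore ended at 0.27. From embryo to L1 nrde-3 changed by -1.81 ± 0.12 in N2 and by -1.86 ± 0.12 in lin-35(n745), and from L1 to L4 by -0.68 ± 0.12 and -0.78 ± 0.12 (adjusted p of at most 0.000122). In its order of levels the stages followed each other, and the strain difference did not pass within any stage. The most alike genes were gogo-1 (r = 0.993), the homeobox gene ceh-43 (r = 0.993) and the ephrin gene vab-2 (r = 0.992).

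Stage differences were general among these genes. From embryo to L1 in N2, 8 of 9 fell and 0 rose in limma (also 0 at an unadjusted p under 0.05), where 74.4% of all probe sets changed, 40.8% higher and 33.6% lower. The exception, alg-1, was an exception on its brightest probe set only. That probe set rose with arrays centred on their medians (0.50, adjusted p = 0.0156) and with a further quantile normalization (0.71, adjusted p = 0.00176). It also rose with a replicate block (0.37, adjusted p = 0.0299). The dimmer alg-1 probe sets fell in limma (adjusted p = 5.04e-06 and 3.81e-06), and the mean of its probe sets gave -0.50 (adjusted p = 0.00164). The fall of rde-1 by 0.25 ± 0.10 (adjusted p = 0.0289) did not hold with the arrays centred on their medians (-0.12) and turned to 0.11 after a further quantile normalization, and it was lost without N2 L1 replicate 1 or 3 or N2 embryo replicate 1 or 3 (-0.23 to -0.24, adjusted p from 0.0639 to 0.0763). The median change of all probe sets over that interval was 0.13, and 0.25 after centring. In lin-35(n745) 5 of 9 fell and 3 rose, csr-1, alg-1 and rde-1, against 70.3% of all probe sets changed, 37.4% higher and 32.9% lower. There too the rise of alg-1 was that of its brightest probe set. The dimmer ones fell (-0.40 and -0.69), and the mean of its probe sets gave -0.12 (adjusted p = 0.421). From L1 to L4 in N2 7 of 9 changed, hrde-1, csr-1, prg-1 and wago-1 higher and alg-1, alg-2 and nrde-3 lower, against 45.2% of all probe sets, 21.2% higher and 24.0% lower. In lin-35(n745) 9 of 9 changed, 4 higher and 5 lower, against 43.2%, 19.5% higher and 23.7% lower. For alg-1, alg-2 and hrde-1 this held for the brightest probe set alone. The dimmer ones did not pass, at -0.27 and -0.16 for alg-1, -0.26 for alg-2 and 0.04 and 0.17 for hrde-1. Of the 45 pairs of groups that are neighbours in a gene's order of levels, 20 passed. Neighbours are groups close in level, chosen from the values tested, so this count cannot be set against shares for fixed pairs. In the 15 possible pairs of groups, 9.70% to 74.8% of all probe sets passed. In the pairs that differ in both strain and stage or skip a stage, these shares were 74.4% for N2 L4, 70.2% for lin-35(n745) L1 and 72.9% for lin-35(n745) L4 against N2 embryos, and 74.5% for N2 L1, 74.8% for N2 L4 and 72.2% for lin-35(n745) L4 against lin-35(n745) embryos. They were 45.8% for lin-35(n745) L4 against N2 L1 and 49.8% for N2 L4 against lin-35(n745) L1. The strain difference itself depended on stage for 4 genes between embryo and L1 (hrde-1, csr-1 and rde-1 upward and wago-1 downward), against 9.20% of all probe sets, 4.83% upward and 4.36% downward. Between L1 and L4 it did so for 2, hrde-1 and csr-1, both downward, against 6.72%, 3.39% upward and 3.33% downward. Between embryo and L4 it did so for 2, hrde-1 and rde-1, both upward, against 7.74%, 3.85% upward and 3.90% downward.

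Among the other Argonaute genes, vsra-1 had the largest strain differences, at L1 and L4. Of 13 listed, 12 were measured, and in embryos 0 passed in limma, where 9.70% of all probe sets did, with 2 of the 12 at an unadjusted p under 0.05. At L1 1 was higher and 2 lower, against 8.24% and 6.94% of all probe sets, and at L4 1 was higher and 4 lower, against 7.77% and 7.48%. The higher one at both stages was vsra-1, another worm-specific Argonaute gene: its level at L1 was 6.91 to 7.03 in N2 and 8.83 to 9.19 in lin-35(n745), a difference of 2.05 ± 0.14 (adjusted p = 8.32e-10), and at L4 6.65 to 6.89 and 8.43 to 8.76, a difference of 1.78 ± 0.14 (adjusted p = 9.12e-09). At neither stage did its arrays overlap between strains. The secondary Argonaute gene wago-2 was lower at L1 (-0.59 ± 0.14, adjusted p = 0.00476) and at L4 (-0.93 ± 0.14, adjusted p = 5.32e-05). wago-10 (-0.78 ± 0.14, adjusted p = 0.000488) and sago-1 (-0.47 ± 0.12, adjusted p = 0.00919) were lower at L4, and alg-5 was lower at L1 (-0.47 ± 0.13, adjusted p = 0.0191) and at L4 (-0.43). The sperm-line Argonaute genes alg-3 and alg-4 were at most 0.20 apart between strains at any stage and did not pass, with levels of 6.68 ± 0.05 and 7.41 ± 0.17 (SD) in N2 L4 larvae.

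Among partners of the Argonautes, some genes for work on double-stranded RNA were higher in lin-35(n745). Of 17 measured genes for RNA-dependent polymerases, Dicer and helicases, 3 were higher in embryos, 9 at L1 and 7 at L4, and 0 were lower at any stage in limma (1, 0 and 1 at an unadjusted p under 0.05). Among all probe sets 5.92%, 8.24% and 7.77% were higher and 3.78%, 6.94% and 7.48% lower at the 3 stages. The polymerase gene rrf-2 differed by 1.36 ± 0.20, 1.48 ± 0.20 and 1.24 ± 0.20, the double-stranded RNA binding gene rde-4, whose product works with RDE-1, by 0.77 ± 0.11 at L1 and 0.71 ± 0.11 at L4, and the helicase gene rde-12 by 0.79 ± 0.10 and 0.63 ± 0.10. At the 3 stages drh-2 differed by 0.60 ± 0.18, 0.63 ± 0.18 and 0.91 ± 0.18, and drh-3 by 0.33 ± 0.10, 0.63 ± 0.10 and 0.31 ± 0.10. At L1 ekl-1 differed by 0.69 ± 0.10. Of 5 genes for transport of double-stranded RNA, 1, 2 and 3 were higher and 0 lower at the 3 stages in limma (0 lower at an unadjusted p under 0.05 as well), among them sid-1, a channel for double-stranded RNA, at L1 (0.61 ± 0.11, adjusted p = 0.000406) and L4 (0.37 ± 0.11, adjusted p = 0.0219), and sid-5 at L1 (1.12 ± 0.16, adjusted p = 3.91e-05). The others were sid-2 in embryos (0.47 ± 0.11, adjusted p = 0.0106) and at L4 (0.82 ± 0.11, adjusted p = 2.56e-05), and sid-3 at L4 (0.40 ± 0.12, adjusted p = 0.0235). At the shares of lower probe sets given above, lists of 17 and 5 genes would hold few lower genes, so 0 lower is near those shares. The medians of the polymerase list were 0.02, 0.34 and 0.22.

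Factors that act with HRDE-1, PRG-1 and the microRNA Argonautes gave changes in both directions, as did the array as a whole. Of all probe sets, the higher share by stage was 5.92%, 8.24% and 7.77%, and the lower share 3.78%, 6.94% and 7.48%. Lists of 7 to 10 genes would hold few changed genes at these shares. Of 7 nuclear RNA interference genes 0 passed in embryos in limma (3 at an unadjusted p under 0.05), nrde-1 (0.48 ± 0.12) and the histone methyltransferase gene met-2 (0.45 ± 0.11) were higher at L1, and set-32 (-0.44 ± 0.11) and morc-1 (-0.38 ± 0.12) were lower at L4. Of 8 measured piRNA factors tofu-2 was higher in embryos (1.13 ± 0.11), at L1 (1.96 ± 0.11) and at L4 (0.35 ± 0.11), while pid-1 (-0.60 ± 0.11), snpc-4 (-0.41 ± 0.11) and tofu-5 (-0.36 ± 0.12) were lower at L4. Of 10 measured mutator and secondary RNA factors rsd-2 (0.43 ± 0.14) and mut-7 (0.40 ± 0.10) were higher at L1 and pir-1 (-0.36 ± 0.10) was lower at L4. Of 9 microRNA factors the nuclease gene tsn-1 (-1.17 ± 0.19) and the Drosha partner gene pash-1 (-0.39 ± 0.11) were lower at L1, where the Drosha gene drsh-1 (0.71 ± 0.13) was higher, and nhl-2 (-0.70 ± 0.16) was lower at L4. Over these lists and the 2 before them, with the other Argonautes, 68 of 75 genes were measured, of which 5 were higher and 0 lower in embryos in limma (9 and 9 at an unadjusted p under 0.05), 18 and 4 at L1 and 12 and 11 at L4, with medians of -0.02, 0.06 and 0.00.

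**Figure D4:**
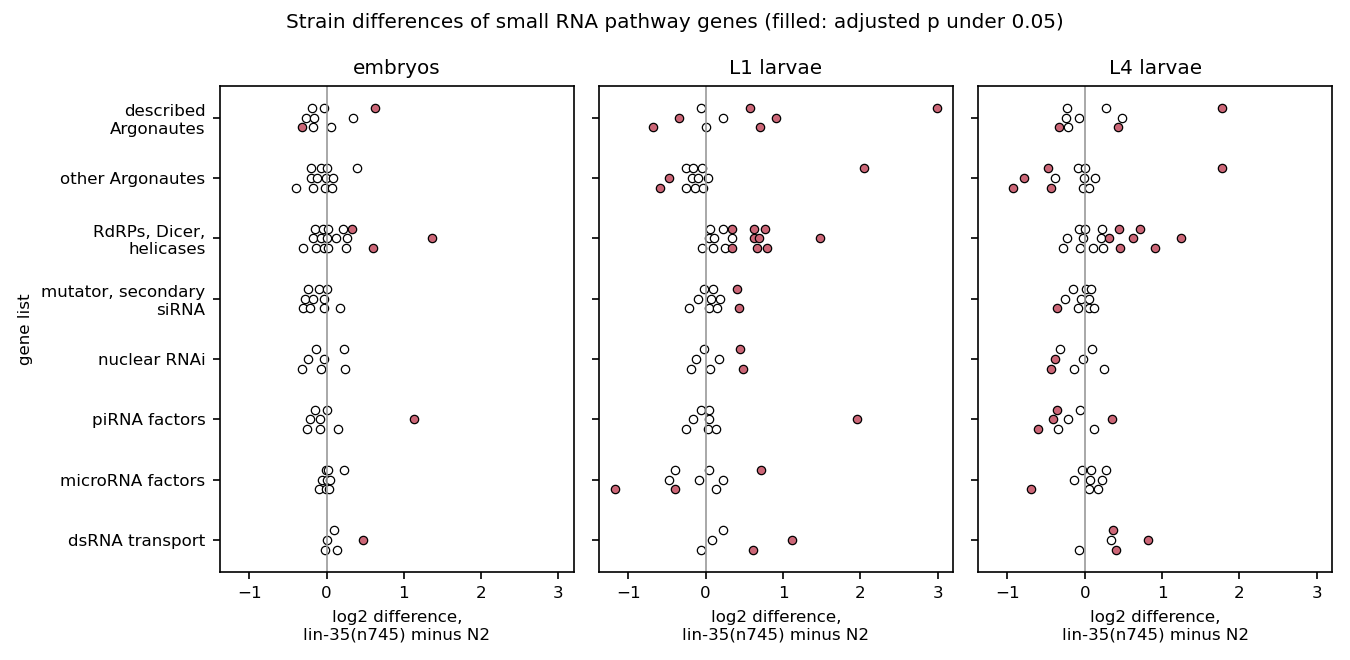
Difference in log2 RMA value between lin-35(n745) and N2 (horizontal axis) for each measured gene of 8 small RNA gene lists (vertical axis) at the 3 stages, filled where the adjusted p was under 0.05, with vertical offsets within a list for legibility only. The point farthest to the right at L1 is hrde-1 at 2.99, followed by vsra-1 at 2.05 and tofu-2 at 1.96.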

How the data were processed

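RNA of 18 whole-worm samples was hybridized to Affymetrix arrays. The submitters' processing notes name RMA, which corrects background, normalizes by quantiles and summarizes probes, for the authors' deposited values. No source used here gives its version or options. The deposited values were taken as log2, although the labels state no base: they run from 2.55 to 15.02, with array medians of 6.21 to 6.39. No detection call exists after RMA, and precision is set by the number of arrays.

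Of 22625 probe sets, 77 controls were left out. In the platform annotation 20766 of the rest carry 1 gene, 887 several and 895 none. Of the former, 20701 were found in the RefSeq table of WBcel235, used only for names, chromosomes and neighbours because no build is named for the array. 0 value columns were left unused.

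With limma 3.58.1 (R 4.3.3), 1 model with a mean for each of the 6 groups covered the 18 arrays (lmFit, then eBayes without trend; 12 residual and 7.66 prior degrees of freedom), two-sided, with Benjamini-Hochberg adjustment over 22548 probe sets per contrast. It was tested on simulated data. The members, gene lists, contrasts and alternatives were chosen with earlier results of these data known. Genes named from a list were drawn from the up to 4 changed genes with the largest change per strain contrast, but not all of these were named. Also named were all members, and per member the 3 genes with the highest correlation over 18 arrays. Lower germline markers and unchanged relatives were named after their values were seen. Titles number replicates 1 to 3, but same-numbered arrays of the strains deviated together with correlations of -0.05 to 0.27, and not above 0.1 in every pair, so they were not paired.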

Additional observations from a re-analysis of the deposited data

Results flagged for a closer look

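The results named here were singled out because the strain difference itself differed between stages, by a test of that difference in limma. For hrde-1 it changed by 2.36 ± 0.14 from embryo to L1, by -1.21 ± 0.14 from L1 to L4 and by 1.14 ± 0.14 from embryo to L4. The hrde-1 probe set of intermediate level gave 2.66 ± 0.20, -1.50 ± 0.20 and 1.17 ± 0.20, and the dimmest did not pass for any of the 3. For csr-1 the change was 1.17 ± 0.18 from embryo to L1 and -1.15 ± 0.18 from L1 to L4. For rde-1 it was 0.89 ± 0.14 from embryo to L1 and 0.59 ± 0.14 from embryo to L4. Its dimmer probe set gave 0.59 ± 0.15 from embryo to L1, and 0.49 ± 0.15 from embryo to L4, which did not pass (adjusted p = 0.0555). For wago-1 the change was -0.52 ± 0.16 from embryo to L1, just past the threshold. For alg-1 the probe set of intermediate level gave 0.99 ± 0.21 from embryo to L4 (adjusted p = 0.00446), where the brightest gave 0.15 ± 0.26. Groups of 3 arrays are too small for a search for single outlying arrays.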

How the results depend on the processing

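Each of 90 member values (10 contrasts of 9 genes) was recomputed under 27 alternatives, 18 of which left out 1 array. Of these values 76 kept their side of the threshold under all 27, among them 20 of the 27 strain differences, and all 3 strain differences of hrde-1. The number of changed Argonaute genes in embryos was 1 in place of 2 with the arrays of the compared groups alone, without replicate 1 of both strains and with the mean of all probe sets, and at L4 it was 5 in place of 3 with a replicate block. With the replicate block alg-1 (0.48, adjusted p = 0.0326) and rde-1 (0.27, adjusted p = 0.047) also passed at L4, and the wago-1 stage dependence did not (adjusted p = 0.0511). Over all probe sets, 1584 in place of 3423 changed at L1 with the L1 arrays alone, and 1265 in place of 2188 changed in embryos without replicate 1 of both strains. Leaving out 1 array gave 1 to 2 changed Argonaute genes in embryos, 4 to 6 at L1 and 1 to 4 at L4, 3 to 4 stage-dependent ones from embryo to L1, 2 to 2 over the other intervals, in N2 7 to 9 stage differences from embryo to L1 and 7 to 7 from L1 to L4, in lin-35(n745) 8 to 8 and 8 to 9, besides 18 to 20 neighbouring pairs. Over all probe sets it gave 1499 to 2564 in embryos, 2399 to 4067 at L1 and 2548 to 3795 at L4. With the L1 arrays alone prg-1 (adjusted p = 0.186) and alg-1 (0.0754) did not pass. With the mean of all probe sets the embryo to L1 change of alg-1 turned to -0.50 for N2 and -0.12 for lin-35(n745). With a further quantile normalization that of rde-1 in N2 turned to 0.11. The cause was not tested.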
